A study of Mus musculus with 10 samples.

Results

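The genes described here are the 8 listed genes of the CatSper calcium channel (Catsper1, Catsper2, Catsper3, Catsper4, Catsperb, Catsperd, Catsperg1 and Catsperg2), the sperm potassium channel gene Kcnu1 and the proton channel gene Hvcn1. They were taken by gene symbol from the known (RefSeq NM_) messenger RNAs, and the values of a gene's transcripts were summed. The 10 genes are 10 of 16082 known mRNA genes with a value in the tables, and each had 1 listed transcript, so they are 10 of 18966 known mRNA transcripts. RNA was sequenced from mature sperm and whole testes of C57BL/6 mice (C57BL/6J in the study's methods), aged 3 to 5 months by the labels. The mice had received a single intraperitoneal injection of cadmium chloride at 3 mg per kg of body weight, or saline, and were killed at day 35. The libraries came from 4 pools of control sperm, from control testes (2), from sperm after cadmium (2) and from testes after cadmium (2). The study's methods describe the 4 sperm samples as pools of sperm from 15 mice each, so that such a library has no value for a single mouse. They take the control testes from the same mice as the control sperm, and do not mention cadmium samples. The labels name no allele or transgene.

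Mature sperm make very little new RNA, and the transcripts that they carry are for the most part left over from spermatids in the testis. CatSper is a calcium channel of the sperm tail. CatSper1 to CatSper4 form its pore, the beta, gamma and delta proteins surround the pore outside the cell, and the calcium that enters drives hyperactivated swimming. Kcnu1 encodes Slo3, the potassium channel that hyperpolarizes sperm during capacitation, and Hvcn1 encodes a voltage-gated proton channel that lets acid leave cells and is also known in phagocytes and B cells.

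The summed expected count, an estimate of the fragments from each transcript, was 366455 to 1058017 per library for the control sperm pools and 1155491 to 1254477 for sperm after cadmium. The testes libraries summed to 2606086 to 2866856 in controls and 2709568 to 2845417 after cadmium, so that sperm libraries were shallower than testes libraries. Known mRNAs took 9.14 to 13.6% of the counts of a library. Prm2, a protamine of condensed sperm chromatin, was listed in all 10 libraries, at 184 to 438 FPKM in control sperm and 147 to 281 FPKM in control testes. All 6 sperm and late spermatid markers were tested in control sperm against control testes. Of these, 3 were called lower in sperm (Prm1 with a log2 fold change of -4.55, Tnp1 with -5.21, and Odf1) and 0 higher. In cadmium sperm against cadmium testes 5 were tested, 4 were called lower (Prm1, Tnp1, Tnp2 and Akap4) and 0 higher. Of all genes tested in these comparisons, 17.6% and 15.4% were called lower. Odf1, an outer dense fibre gene, was at 0 in all 6 sperm libraries and also in both cadmium testes libraries. It entered the control comparison through the testes libraries alone, so it could only come out lower there. Akap4, at 0.61 and 0 FPKM in cadmium sperm, entered the cadmium comparison in the same way and could only come out lower. The 4 markers of pachytene spermatocytes and the 4 of spermatogonia were at 0 in every control sperm pool, and summed to 0 to 3.18 and 0 to 0.31 FPKM in cadmium sperm. The Leydig cell gene Star was at 0, 3.79, 27.5 and 2.96 FPKM in control sperm pools 1 to 4, against 14.7 and 14.3 FPKM in control testes. Of the other Leydig cell markers, Insl3, Cyp11a1 and Hsd3b1 were at 0 in every control sperm pool, and Cyp17a1 had 1 count, in pool 2. In the deeper control testes libraries these markers had only 0 to 10 counts each, against 168 and 148 for Star. The part of Leydig cell RNA in the sperm libraries was not tested. The first control sperm pool is given beside the other 3 and was not in the tests. The study dropped it after sequencing for its low Pearson correlation with the other sperm replicates.

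Of the 10 genes, 10 were listed in at least 1 testes library and 5 in at least 1 sperm library. Hvcn1 was the only one listed in all 10 libraries. Control sperm pools 1 to 4 listed 1, 4, 1 and 2 of the 10 genes, and each cadmium sperm library listed 4. The control testes libraries listed 7 and 5 of them, and those after cadmium 7 and 9. Only Hvcn1, Catsper2 and Catsperd reached more than 4 counts in any library. The heat map of counts shows Hvcn1 far above the others in testes, Catsper2 and Catsperd with up to 32 and 24 counts in a sperm library, and Catsperg1 and Catsperg2 with at most 2 there.

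**Figure D1:**
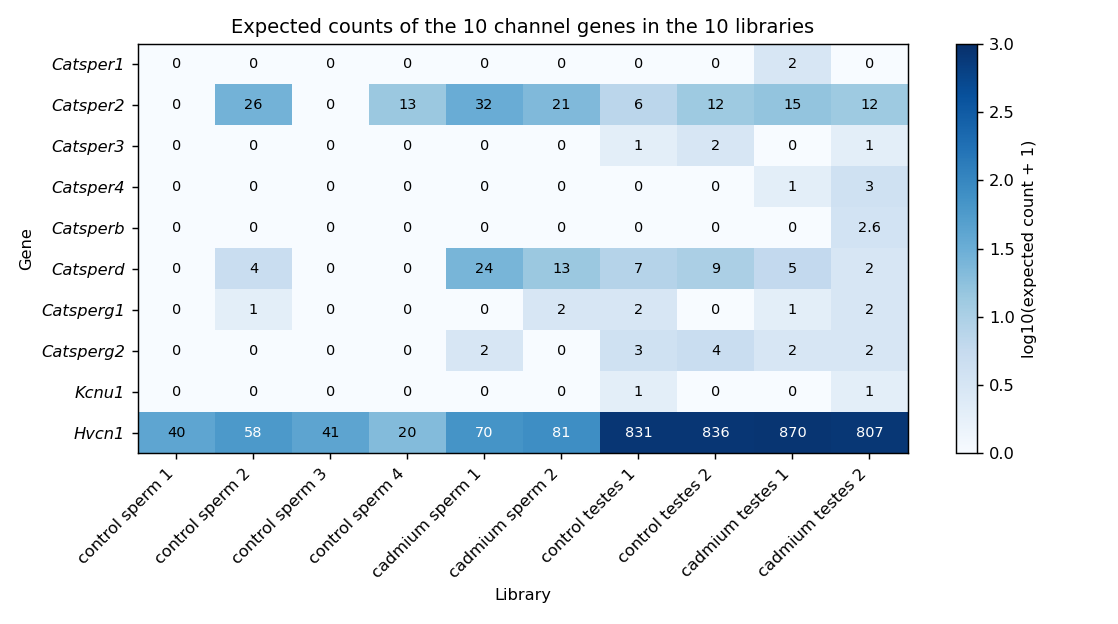
Expected counts (numbers in the cells; colour on a log10(count + 1) scale) of the 10 channel genes (vertical axis) in the 10 libraries (horizontal axis). Hvcn1 reached 807 to 870 counts in testes and 20 to 81 in sperm, Catsper2 was at 0 in control sperm pools 1 and 3, and Kcnu1 had 1 count in each of 2 testes libraries.

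Among the pore genes, Catsper2 (transcript NM_153075, RefSeq gene at chromosome 2:121391633-121414598 in GRCm38.p6) held most of the counts. FPKM, which scales a count to transcript length and library size, was 0, 11.1, 0 and 11.5 for Catsper2 in control sperm pools 1 to 4, from 0, 26, 0 and 13 counts. It was 12.5 and 7.55 FPKM in the cadmium sperm libraries, from 32 and 21 counts. In testes, Catsper2 was at 0.95 and 2.09 FPKM in controls and at 2.39 and 2.01 FPKM after cadmium, from 6 to 15 counts.

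Wherever Catsper2 was listed in sperm, its FPKM was therefore above that of all 4 testes libraries, but the control sperm pools split into 2 with the transcript and 2 without it. At the share of counts that Catsper2 had in control sperm pool 2, pools 1 and 3 would have held 10.4 and 9.01 counts. A count of 0 allows up to 3 counts, which is 7.07 CPM (counts scaled to a library of 1000000) in pool 1 and 8.19 CPM in pool 3. Pool 2 had 24.6 CPM of Catsper2, with an exact binomial 95% interval of 16.1 to 36.0, which lies above both limits. Such intervals and limits cover counting error only. The pools without Catsper2 were the shallowest 2 libraries. RefSeq places the Pdia3 gene so that it overlaps the Catsper2 gene by 697 bases. Pdia3, which encodes a protein disulphide isomerase, was at 0, 2.89, 0 and 3.01 FPKM in control sperm pools 1 to 4, at 3.63 and 1.83 in cadmium sperm and at 0 to 1.47 in testes. The part of shared reads in the Catsper2 values was not tested. The library was strand-specific by the series' design, but whether the counting used the strand is not given in the sources used here.

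The other pore genes were close to the limit of detection. Catsper1 had 2 counts (0.35 FPKM) in cadmium testes 1 and was listed in no other library. Catsper3 had 1 and 2 counts (0.30 and 0.67 FPKM) in control testes and 1 count (0.32 FPKM) in cadmium testes 2. Catsper4 had 1 and 3 counts (0.24 and 0.76 FPKM) in cadmium testes. None of these 3 genes had a count in any of the 6 sperm libraries. For Catsper1, a count of 3, the upper limit for a count of 0, corresponded to 1.38 to 3.97 FPKM in a control sperm pool and to 1.16 to 1.26 in a cadmium sperm library. A count of 0 in sperm therefore does not place Catsper1 below its level in testes.

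Among the auxiliary genes, Catsperd (NM_175350, gene at chromosome 17:56626911-56664456), which encodes the delta subunit, was the one with the most counts. It was at 1.49 FPKM in control sperm pool 2, from 4 counts, and at 0 in the other 3 pools. It was at 8.17 and 4.08 FPKM in cadmium sperm, from 24 and 13 counts. It was at 0.97 and 1.37 FPKM in control testes and at 0.70 and 0.29 FPKM in cadmium testes, from 2 to 9 counts. Both cadmium sperm libraries thus lay above the other 8 libraries, and the control sperm and control testes values overlapped. At the share of control sperm pool 2, the other control pools would have held 1.39 to 1.92 counts of Catsperd, so a count of 0 in them does not separate them from pool 2.

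Catsperb, the beta subunit gene, had 2.6 counts (0.26 FPKM) in cadmium testes 2 and was listed nowhere else. The gamma subunit has 2 closely related genes in the mouse, between which estimated counts can be split, so their separate values are uncertain. Catsperg1 had 1 count in control sperm pool 2, 2 in cadmium sperm 2, 2 in control testes 1, and 1 and 2 in the cadmium testes libraries. Catsperg2 had 3 and 4 counts in the control testes libraries, 2 in each cadmium testes library and 2 in cadmium sperm 1. Neither gene exceeded 0.45 FPKM in any library.

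Summed over the 8 CatSper genes, the level was 0, 12.8, 0 and 11.5 FPKM in control sperm pools 1 to 4 and 21.1 and 12.1 FPKM in cadmium sperm. It was 2.69 and 4.52 FPKM in control testes and 3.96 and 4.04 FPKM in cadmium testes. The sum in sperm was thus either 0 or above all testes values. By a two-sided exact permutation test on log2(FPKM + 1), the sum differed between cadmium sperm and cadmium testes with p = 0.333, the smallest that 2 against 2 samples can give. The exact permutation test of the last 3 control sperm pools against control testes gave p = 1.00, where the smallest possible was 0.2. These designs cannot reach a p of 0.05.

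Catsper2 and Catsperd were the CatSper genes that could be tested and that had counts in sperm, and short stretches before a RefSeq transcript start of each are shown for that reason. Cyclic AMP response elements bind CREM, an activator of many spermatid genes, and the half-site is TGACG. The half-site was searched on both strands in the 250 bases before each RefSeq start of GRCm38.p6. Capitals mark it below, reading TGACG on the gene's strand or CGTCA where it lies on the opposite strand.
Catsper2, chr2:121413853-121413882, minus strand, 90 to 61 bases before the start: cgccgattggctgCGTCAcgcagcgtcggg
Catsperd, chr17:56626884-56626913, plus strand, 163 to 134 bases before the start: tacTGACGgcgcaccgcacttaCGTCAtct
The Catsperd window held 1 more half-site, 106 bases before the start, and a second Catsperd window, for another start, held none. Both starts lie inside the whole RefSeq gene, which begins 806 bases further upstream for Catsper2 and 136 bases further upstream for Catsperd. The Catsper2 window overlaps the neighbouring gene Pdia3 by 141 bases, none of them in the stretch shown, and the Catsperd window overlaps the neighbour Lonp1 by 107 bases, 20 of them in the stretch shown. Of the 10 genes, 6 had a window and together 8 windows, of which 2 held a half-site, where 17.8% of all 32851 windows did. The full element, TGACGTCA, was in 0 of the 8 windows and in 1.55% of all windows. A match describes the sequence and shows no binding.

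Kcnu1 (NM_008432), the potassium channel gene, had 1 count in control testes 1 (0.10 FPKM) and 1 in cadmium testes 2 (0.11 FPKM). It was at 0 in the other 8 libraries, all 6 sperm libraries among them. Lrrc52, which encodes the auxiliary subunit of this channel, was at 8.93 and 8.46 FPKM in control testes and at 4.51 and 9.15 FPKM in cadmium testes, and it too was at 0 in all 6 sperm libraries.

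Hvcn1 (NM_028752, gene at chromosome 5:122206805-122242297), the proton channel gene, was the most abundant of the 10 genes in every library. It was at 36.0, 20.9, 42.9 and 15.0 FPKM in control sperm pools 1 to 4, from 40, 58, 41 and 20 counts. It was at 23.0 and 24.6 FPKM in cadmium sperm, from 70 and 81 counts. It was at 111 and 123 FPKM in control testes and at 117 and 114 FPKM in cadmium testes, from 807 to 870 counts. All 6 sperm libraries lay below all 4 testes libraries, and the control and cadmium values overlapped in each tissue. Among the known mRNA genes listed in a library, Hvcn1 ranked 45 to 54 by FPKM in testes, above 99.5 to 99.6% of them, and above 86.8 to 97.0% of them in sperm.

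Hvcn1 overlaps the gene Tctn1 by 2803 bases in RefSeq. Tctn1 was at 8.12 to 17.0 FPKM in control sperm and at 3.54 and 5.03 FPKM in control testes. The part of shared reads in the Hvcn1 values was not tested. Of the 6 leukocyte markers, 4 had a row in the tables. Their summed level was 0 to 0.86 FPKM in control sperm and 0.74 to 1.40 in control testes. After cadmium it was 1.70 to 4.45 FPKM in sperm and 0.55 to 0.99 in testes. The part of leukocyte RNA in the Hvcn1 values was not tested.

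**Figure D2:**
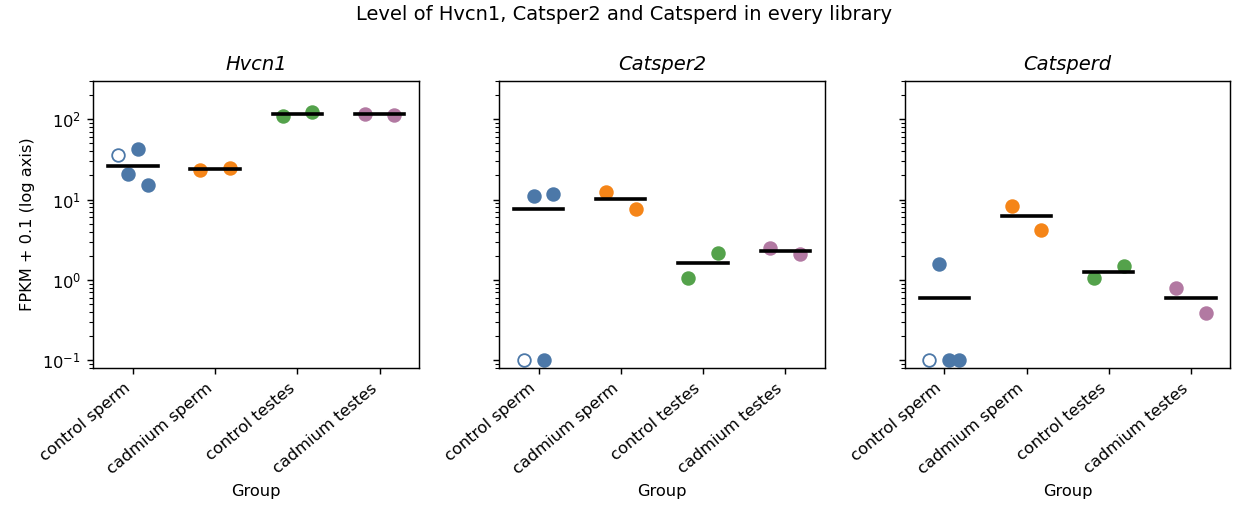
FPKM + 0.1 on a log axis for Hvcn1, Catsper2 and Catsperd in the 4 groups; each point is 1 library, the open point is the first control sperm pool, and the bar is the group mean without that pool. Points at the bottom of the axis are at 0 FPKM; Hvcn1 was 15.0 to 42.9 FPKM in sperm and 111 to 123 in testes, and Catsperd was highest in the 2 cadmium sperm libraries, at 8.17 and 4.08 FPKM.

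The ratio of Hvcn1 to Catsper2 within a library does not depend on how libraries are scaled to each other. In testes the ratio of FPKM was 48.9 to 117, and in the 4 sperm libraries with Catsper2 counts it was 1.30 to 3.26. In control sperm pools 1 and 3, where Catsper2 was at 0, the ratio was at least 11.5 and 11.8, taking 3 counts of Catsper2 per library as the limit. The testes libraries thus exceeded the 4 sperm libraries with a ratio, and the order could not be set for the other 2. The ratio of Hvcn1 to Catsperd was 89.6 to 393 in testes, 2.82 and 6.02 in cadmium sperm and 14.0 in control sperm pool 2.

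**Figure D3:**
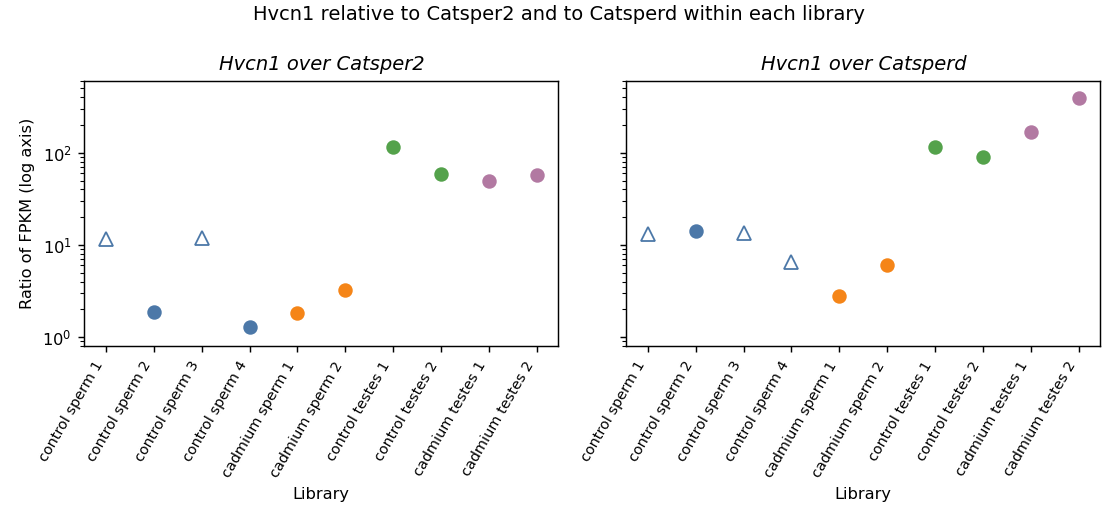
Ratio of Hvcn1 FPKM to Catsper2 FPKM (left) and to Catsperd FPKM (right) in each library, on a log axis; filled circles are ratios, and open triangles are lower limits for libraries with 0 counts of the CatSper gene, taken at 3 counts. For Catsper2 the 4 testes libraries lie at 48.9 to 117 and the 4 sperm libraries with a ratio at 1.30 to 3.26.

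The comparison of control sperm with control testes asked which transcripts differ between mature sperm and the tissue in which they form. Hvcn1 was lower in control sperm, with a mean of 26.2 ± 14.7 FPKM (SD, n = 3) against 117 ± 8.51 (SD, n = 2) in testes. The edgeR log2 fold change was -2.48 ± 0.65 (SE approximated from the F statistic), a 5.56-fold difference, with a Benjamini-Hochberg adjusted p of 0.00671. All 3 pools lay below both testes samples. Catsper2 had a log2 fold change of 2.14 ± 1.50 (adjusted p = 0.31) and Catsperd of -0.86 ± 1.34 (adjusted p = 0.68). Of the 10 genes, 3 passed the filter of at least 1 FPKM in 2 or more samples. Of these, 1 was called lower and 0 higher, at an adjusted p below 0.05 and a change over 2-fold, where 21.8% of all 24432 genes tested, mRNA and lncRNA, were called, 17.6% lower and 4.15% higher. The median log2 fold change over all genes was -1.24. In whole tissue and pooled cells, fewer cells of a type and less RNA per cell cannot be told apart. Without control sperm pool 4 the Hvcn1 change was -2.15 with an adjusted p of 0.17 and was not called, and without pool 3, where it was at 0, Catsper2 was called higher (log2 fold change 2.89, adjusted p = 0.029). Over 14 alternatives the adjusted p of Hvcn1 ran from 0.000971 to 0.17.

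The comparison of cadmium sperm with cadmium testes shares no library with the one above. All 3 genes that passed the filter were called: Catsper2 and Catsperd were higher in sperm and Hvcn1 was lower. Catsperd was below 1 FPKM in both cadmium testes libraries. It passed the filter through the sperm libraries alone, so it could only be called higher. Without the filter its log2 fold change was 3.59 (edgeR adjusted p = 0.00048). Catsper2 had a mean of 10.0 ± 3.48 FPKM in sperm and 2.20 ± 0.27 in testes (SD, n = 2 each), a log2 fold change of 2.40 ± 0.66 with an edgeR adjusted p of 0.00198. Catsperd had a mean of 6.13 ± 2.89 FPKM in sperm and 0.50 ± 0.29 in testes (SD, n = 2 each), a log2 fold change of 3.80 ± 0.84 with an edgeR adjusted p of 6.9e-05. Hvcn1 had a mean of 23.8 ± 1.09 FPKM in sperm and 115 ± 2.08 in testes (SD, n = 2 each), a log2 fold change of -2.04 ± 0.57 with an edgeR adjusted p of 0.00226. Both sperm samples lay on the same side of both testes samples for each of the 3 genes. Of all 25780 genes tested, 31.6% were called, 16.2% higher and 15.4% lower, so a call was common in this comparison, and the median log2 fold change over all genes was -0.30. Of the 6 markers of epididymal epithelium, 4 were tested, and Krt18 was called higher in sperm (4 and 5 counts against 0 and 0, at least 6.92-fold with 3 counts over both testes libraries as the limit, edgeR adjusted p = 0.000844). Krt18 passed the filter through sperm alone. Crisp1, secreted by the epididymis, had 4 and 4 counts in cadmium sperm, 1 and 3 in cadmium testes and 0 in all control libraries, and was not called. Krt8 (log2 fold change -1.76 ± 1.00) and Epcam (0.75 ± 0.79) were not called. Cdh1 had 1 and 3 counts in cadmium sperm and 0 in cadmium testes, and Lcn5 had 0 in cadmium sperm and 7 in cadmium testes 2. Between control sperm and control testes Krt18 had a log2 fold change of 3.52 ± 1.35 (edgeR adjusted p = 0.051). The list summed to 4.17 to 13.0 FPKM (4 to 9 counts) in control sperm, 9.98 to 10.3 FPKM (20 to 23 counts) in cadmium sperm and 6.54 to 11.3 FPKM in cadmium testes, and its part in the CatSper values was not tested.

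The calls between cadmium sperm and cadmium testes rested on 2 samples a group and on few counts. Without cadmium testes sample 1 none of the 3 genes was called, with log2 fold changes and adjusted p of 2.15 and 0.15 for Catsper2, 4.11 and 0.093 for Catsperd and -2.38 and 0.070 for Hvcn1. In that fit the lone testes library is assumed to vary like the sperm libraries. Without cadmium sperm sample 2 Hvcn1 was not called (adjusted p = 0.059). Without either cadmium sperm sample Catsperd no longer passed the filter. With limma on log2(FPKM + 1) Catsper2 was not called (adjusted p = 0.054), with a pseudocount of 0.1 neither Catsper2 (0.063) nor Catsperd (0.062) was, and in 1 model of the 4 groups Catsper2 was not (0.18).

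Cadmium was compared with saline in testes to see which transcripts the metal changed. Hvcn1 was at 117 ± 8.51 FPKM in control and 115 ± 2.08 in cadmium testes (SD, n = 2 each), with a log2 fold change of 0.04 ± 0.50 (edgeR adjusted p = 1.00). Catsper2 was at 1.52 ± 0.81 and 2.20 ± 0.27 FPKM (SD, n = 2 each), with a log2 fold change of 0.55 ± 0.72 (edgeR adjusted p = 1.00). Of the 10 genes 2 passed the filter, and edgeR called 0 of them, with 0 at an unadjusted p under 0.05, as did DESeq2 and limma. Of all 26724 genes tested, 0.0225% were called, 0.0187% higher and 0.00374% lower.

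In sperm, Catsperd had the largest estimate after cadmium of the 3 genes fitted. It was at 0.50 ± 0.86 FPKM (SD, n = 3) in the last 3 control pools and at 6.13 ± 2.89 (SD, n = 2) in cadmium sperm. The log2 fold change was 3.05 ± 1.91 with an edgeR adjusted p of 1.00 and an unadjusted p of 0.11. Both cadmium samples lay above all 4 control pools, and the exact permutation test gave p = 0.2 with 3 pools and p = 0.133 with 4, in both cases the smallest the design allows. Without control sperm pool 2, the only control pool with Catsperd counts, the log2 fold change was 6.71 with an edgeR adjusted p of 0.25. In that fit Catsperd passed the filter through cadmium sperm alone and could only come out higher, and the size of the change depends on the prior count. Catsper2 (0.30 ± 1.17) and Hvcn1 (0.02 ± 0.72) had edgeR adjusted p of 1.00. Of the 10 genes 3 passed the filter, and edgeR called 0 of them, with 0 at an unadjusted p under 0.05. DESeq2 also called 0, as did limma, which gave an unadjusted p of 0.041 for Catsperd with a pseudocount of 1. Of all 20640 genes tested, 0.0824% were called, 0.0484% higher and 0.0339% lower.

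The cadmium effect in sperm minus that in testes was tested as an interaction over 9 libraries, which is also the test of whether the difference between sperm and testes changed with cadmium. Catsperd had a log2 difference of 4.13 ± 1.77, with an unadjusted p of 0.0196 and an edgeR adjusted p of 1.00. Catsper2 (-0.28 ± 1.42) and Hvcn1 (-0.09 ± 0.93) had edgeR adjusted p of 1.00. Of the 3 genes that passed the filter 0 were called by edgeR, DESeq2 or limma, and 0.0396% of all 32814 genes tested were called, 0.00914% with a higher and 0.0305% with a lower value. The calls of Catsper2 and Catsperd in cadmium but not in control sperm against testes are therefore not shown to differ between the treatments. The comparisons with control libraries share those libraries and are not independent. The control and cadmium tables were also written differently, with every expected count printed to 2 decimals in control tables and 32.8 to 35.3% of them so in cadmium tables, and condition and table version cannot be told apart. The cadmium sperm libraries were deeper than every control sperm pool, and the part of depth in these values was not tested.

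**Figure D4:**
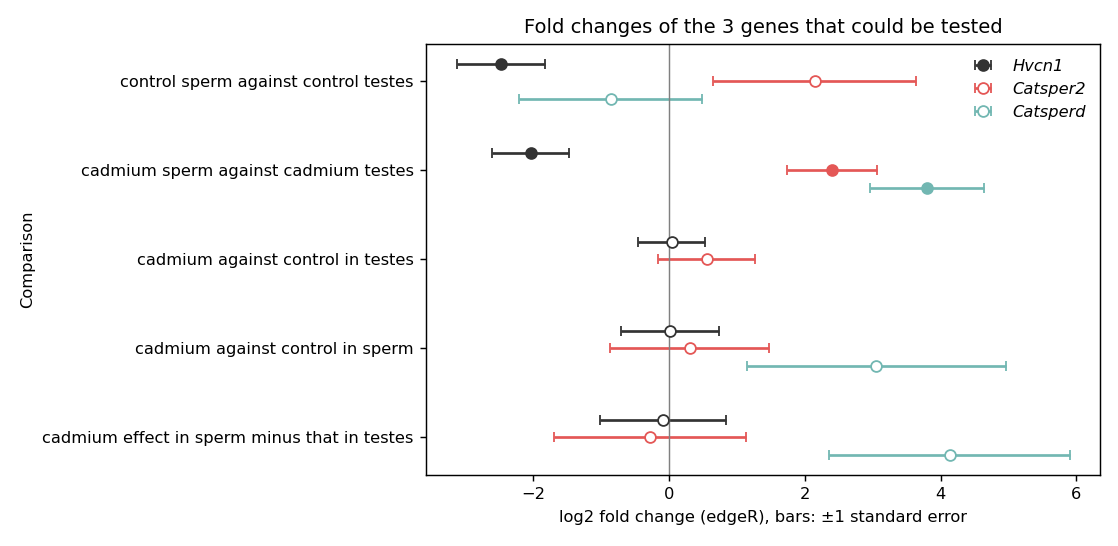
edgeR log2 fold change (horizontal axis, bars are 1 standard error each way, approximated from the F statistic) of Hvcn1, Catsper2 and Catsperd in the 5 comparisons (vertical axis), where filled points passed an adjusted p of 0.05 and a 2-fold change. Hvcn1 was called lower in sperm in both treatments (-2.48 and -2.04), and Catsper2 (2.40) and Catsperd (3.80) were called higher in cadmium sperm against cadmium testes; Catsperd was not fitted in testes alone.

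Other proteins of the CatSper complex were read from a list of 8 genes, of which 6 had a row. In control sperm against control testes 3 of the 8 were tested, 1 was called lower and 0 higher, and in cadmium sperm against cadmium testes 4 were tested, 1 lower and 0 higher, where 17.6% and 15.4% of all genes tested were called lower. Tmem262, the most abundant of the list, was at 31.3 and 35.6 FPKM in control testes, at 13.3 FPKM in control sperm pool 2 and 0 in the other 3 pools, and at 12.2 and 6.42 FPKM in cadmium sperm. It was not called in either comparison (log2 fold changes -2.62 ± 1.49 and -1.36 ± 0.75, edgeR adjusted p = 0.20 and 0.15). Efcab9, a calcium sensor of the channel, had 8 and 5 counts in control testes and 0 in all sperm libraries, with an edgeR adjusted p of 0.048 in controls, at least 1.53-fold lower in sperm when 3 counts over the 3 pools are taken as the limit. Slco6c1, an organic anion transporter of the complex, had 13 and 53 counts in cadmium testes and 0 in sperm, with an edgeR adjusted p of 7.49e-05, at least 9.54-fold lower on the same basis. Catsperz had 3 and 6 counts in the control testes libraries, 7 in each of those after cadmium and 0 in sperm, and was not called (edgeR adjusted p = 0.062 and 0.051). The median log2 fold change of the tested genes was -4.47 in controls and -5.30 after cadmium, against -1.24 and -0.30 over all genes, and rests on genes at 0 in sperm, whose fitted changes depend on the prior count. Where they were tested, Efcab9, Catsperz and Slco6c1 passed the filter through testes alone, so they could only come out lower.

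A list of 10 further genes of sperm ion transport and cyclic AMP signalling had a row each. In control sperm against control testes 7 were tested, 4 were called lower and 0 higher, where 17.6% of all genes tested were called lower. Slc9b1, a sodium and proton exchanger, had 48.0 and 38.7 FPKM in control testes and 3.84, 2.48 and 0 FPKM in control sperm pools 2 to 4, with a log2 fold change of -4.37 ± 1.02 (edgeR adjusted p = 0.00179). The first pool, outside the fit, had 34.2 FPKM of Slc9b1, far above the other 3. Lrrc52, Ppp3r2 (a sperm calcineurin subunit) and Abhd2 (the progesterone-dependent lipid hydrolase of sperm) were at 0 in all sperm libraries and were called lower with an edgeR adjusted p of 0.048 each, at least 6.12-fold, 2.94-fold and 3.06-fold on the basis of 3 counts over the 3 pools. These genes passed the filter through the control testes libraries alone, so they could only come out lower. Prkaca (-0.58 ± 1.23), Ppp3cc (-0.89 ± 1.46) and Atp1a4 (-2.77 ± 1.49) were not called.

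After cadmium, 3 of the 10 genes were tested between sperm and testes, and 2 were called lower, where 15.4% of all genes tested were. Slc9b1 was at 0.78 and 0.72 FPKM in cadmium sperm and at 52.3 and 36.4 in cadmium testes, with a log2 fold change of -5.57 ± 0.76 (edgeR adjusted p = 2.25e-11). Lrrc52 was at least 5.93-fold lower (edgeR adjusted p = 0.00196), with 0 counts in sperm. Here Slc9b1, below 1 FPKM in cadmium sperm, and Lrrc52 passed the filter through testes alone, so both could only come out lower. Ppp3cc, a calcineurin catalytic subunit, was at 6.00 and 3.40 FPKM in sperm and at 2.97 and 7.43 in testes, and was not called (-0.09 ± 0.70). The median log2 fold change of the tested genes was -4.37 in controls and -5.57 after cadmium, against -1.24 and -0.30 over all genes. Both medians are the change of Slc9b1, whose direction the filter set after cadmium. The tested genes also include genes at 0 in sperm, whose direction the filter set and whose fitted changes depend on the prior count. edgeR called 0 genes of either list between cadmium and control in testes or in sperm, or in the interaction.

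Across the 10 libraries, the known mRNA genes whose log2(FPKM + 1) was most like that of the summed CatSper genes were Otop3 (Pearson r = 0.988), Tmem123 (0.988), Atxn7l3 (0.984), Scrt2 (0.98) and Atpaf2 (0.979). These 5 genes were at 0 in at least 1 sperm library, like the CatSper sum, and at 0.73 to 2.71 FPKM in testes. The genes most like Hvcn1 were Icmt (0.986), Mrps25 (0.981) and Invs (0.971), with 0 to 7.67, 12.6 to 38.1 and 1.52 to 6.70 FPKM in sperm and 35.4 to 43.6, 118 to 169 and 18.5 to 25.0 FPKM in testes. They were the highest of 6685 genes compared, the libraries share tissue and depth, and the values are a description. No likeness was read for Kcnu1, which had 1 count in each of 2 libraries.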

How the data were processed

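RNA depleted of ribosomal RNA was sequenced in 10 libraries. The authors cleaned the reads of adaptors and low-quality reads and aligned them with SOAPaligner/SOAP2 by the study's methods, while the submitters' processing notes name HISAT and mm10. The authors deposited 1 table per library with, for each transcript above 0, an expected count (an estimated count, not normalized) and an FPKM. The authors' FPKM divide a count by transcript length and library total. The tool that made the expected counts is not given in the sources used here.

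Here both values were summed over the NM_ transcripts of each gene. Expected counts were rounded and tested with edgeR 4.0.16 (quasi-likelihood F test, TMM) in R 4.3.3 over all genes that reached 1 FPKM in 2 or more of the libraries compared, with Benjamini-Hochberg adjustment over all of them. A call needed an adjusted p below 0.05 and a change over 2-fold. The test returns no standard error. The value after ± beside an edgeR log2 fold change is the absolute change divided by the square root of its F statistic. The first control sperm pool was left out, as in the study's results. The edgeR test was also run on simulated counts. Changes were placed there only in genes with a higher expected count than most of the 10 genes had, so that run does not cover genes of few counts. Alternatives were DESeq2 1.42.0, RLE size factors, no filter, limma 3.58.1 on log2(FPKM + 1) or log2(FPKM + 0.1), known mRNA genes alone, all 4 control sperm pools, the replicate number as a block, 1 model of the 4 groups, FPKM rescaled to sum to 1000000, the highest transcript alone and leaving out each library. Exact permutation tests used scipy 1.17.1. No median over the 10 genes is given, since 3 at most were tested.

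The 10 genes and all lists were chosen with earlier results of these data known. From the lists of other CatSper complex genes and of other ion transport and cyclic AMP genes, up to 4 genes of the highest FPKM and every gene called are named. The 5 genes most like the CatSper sum and the 3 most like Hvcn1 are named by Pearson r. Libraries of 1 group differed by at least 9.63 in chi-square per degree of freedom, so none was a copy of another. The study's methods call the control sperm pools and control testes samples biological replicates, and nothing says so of the cadmium samples, so p-values measure the spread between these libraries, which after cadmium may be technical. Promoter windows and gene positions come from RefSeq for GRCm38.p6.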

Additional observations from a re-analysis of the deposited data

Results flagged for a closer look

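In the 4 control sperm pools, 2 of 5 measures had a pool whose gap to the nearest other pool took a larger share of the group's range than Dixon's 95% critical value for 4 samples, which chance gives in about 1 in 20 groups. They were Catsperd, at 1.49 FPKM (4 counts) in control sperm pool 2, and Catsperg1, at 0.27 FPKM (1 count) in the same pool, each against 0 in the other 3 pools. With 3 pools at 0 any value above 0 passes this limit, so the test was void for both, and pool 2 was the deepest of the 4 pools.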

How the results depend on the processing

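Depth limits these results: 7 of the 10 genes never exceeded 4 counts in a library. With the filter, at most 3 of the 10 genes were tested in a comparison. In cadmium sperm against cadmium testes, 6 of 12 alternatives changed the number called higher and 2 of 12 the number called lower. In control sperm against control testes, leaving out 1 library gave 0 to 1 genes higher and 0 to 1 lower. In cadmium sperm against cadmium testes, it gave 0 to 2 higher and 0 to 1 lower, where Catsperd left the table of genes tested without either sperm library. The number higher in that comparison was 1 with limma on log2(FPKM + 1), 0 with limma on log2(FPKM + 0.1) and 1 in 1 model of the 4 groups. The cause was not tested. With all 4 control sperm pools, the log2 difference of the CatSper sum between control sperm and control testes was -0.31, against 0.31 with 3.

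Among the fold changes of the 10 genes, those that changed sign under an alternative had not been called in any. For Hvcn1 in testes the log2 fold change was -0.014 with limma under the pseudocount of 1 and -0.015 under 0.1, and -0.21 to 0.34 without 1 library, and for Catsper2 in testes it was -0.061 to 1.46. For Hvcn1 in sperm it was -0.18 with DESeq2, -0.18 with RLE size factors, -0.0027 with limma under the pseudocount of 1, -0.024 over known mRNA genes, -0.066 with all 4 control pools and -0.36 to 0.27 without 1 library, and for Catsper2 in sperm -0.32 to 0.82. For the interaction of Catsper2 it was 0.079 without the filter, 0.63 and 1.46 with limma under the pseudocounts of 1 and 0.1, 0.19 with all 4 pools and -1.27 to 0.69 without 1 library. For that of Hvcn1 it was 0.38 without the filter, 0.012 and 0.017 with limma, 0.058 over known mRNA genes and -0.48 to 0.51 without 1 library. RLE size factors moved the median of all genes in cadmium against control sperm from 0.43 to 0.27.

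With the replicate number as a block together with all 4 control sperm pools, Hvcn1 in cadmium against control sperm was -0.15 and the interaction of Catsper2 was 0.30, where all 4 pools alone had already turned both signs. With the block, no call of the 10 genes changed. The control sperm and testes came from the same mice as groups, but nothing ties a sperm pool to a testes sample of the same number. With 2 pairs, the deviations of same-numbered libraries correlated at 0.495 in testes and 0.107 in cadmium sperm and testes. What same-numbered testes libraries may share is not given in the sources used here and was not tested, and the main fits have no block. The block moved the count over all genes from 6 to 89 in testes and from 5577 to 1566 in control sperm against testes with all 4 pools.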
